A study of Homo sapiens with 6 samples.

Results

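The mitochondrial ribosomal proteins were taken as the protein-coding genes whose symbol is MRPL or MRPS followed by a number. They make up 79 of the 21494 genes of the count table, under 78 symbols, because MRPS5 has 2 entries. All 79 passed the filter on low counts and were among the 16756 genes tested. By their place in the human mitochondrial ribosome, 51 belong to the large subunit and 27 entries to the small subunit. MRPS36 carries a family symbol but is known as a component of the 2-oxoglutarate dehydrogenase complex. The proteins named MRPS18A and MRPS30 sit in the large subunit and were counted there.

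Mitochondria translate the messenger RNAs of their own small genome on a dedicated ribosome. Its ribosomal RNAs come from mitochondrial DNA, whereas all of its proteins are encoded in the nucleus, made in the cytosol and imported. Part of these proteins descend from bacterial ribosomal proteins and part were added in the mitochondrial lineage, and the products of this ribosome are membrane subunits of the respiratory chain.

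RNA-seq had been carried out on 6 samples labelled as G361, a human melanoma cell line, to ask how loss of VprBP alters transcription. VprBP, encoded by DCAF1, is a substrate receptor of a CUL4 ubiquitin ligase to which kinase activity toward histone H2A has also been ascribed. The 3 Control sh samples carried a control shRNA and the 3 VprBP sh samples carried a lentiviral shRNA against the VprBP coding region. Both were stable puromycin-selected cells, a single VprBP shRNA was used, and nothing states that the samples of a group are separate cultures, so p-values measure only the spread between these samples.

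The labels name G361 as the line but LD611 as the source, and the marker genes differed sharply between the groups. Among 7 melanocyte markers, MITF had 154 to 312 counts and PMEL 28 to 46 over the 6 samples, MLANA and TYRP1 had at most 5, and TYR, DCT and SOX10 had no entry in the table. TP63 ranged over 7670 to 8806 counts across the Control sh samples against 8 to 13 across the VprBP sh samples, whereas GATA3 had at most 7 counts in the former and 1334 to 1873 in the latter. Of 9 urothelial markers, 7 had an entry, and besides these KRT5, KRT7, UPK1B and UPK2 were lower in every VprBP sh sample than in every Control sh sample, with UPK1B at 0 counts in VprBP sh, while UPK1A had at most 5 counts. The part of these markers in the results was not tested. The effect of the VprBP shRNA and any other difference between the 2 cell populations cannot be told apart in this design, and this holds for every value below. DCAF1 itself had counts of 688, 893 and 884 in the Control sh samples and 681, 488 and 628 in the VprBP sh samples, a log2 fold change (log2 change in the following) of -0.58 (SE, the standard error, 0.17, adjusted p = 0.0125 by edgeR's quasi-likelihood test with Benjamini-Hochberg adjustment). The DCAF1 call was lost with library size alone (-0.37, adjusted p = 0.0851) and with replicates 2 and 3 summed (-0.46, adjusted p = 0.0839). For DCAF1 the exact two-sided permutation test gave p = 0.1, below which a design of 3 against 3 cannot go. Total counts ran from 18195926 to 26883925 per sample.

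Most mitochondrial ribosomal protein genes stayed within 2-fold between Control sh and VprBP sh, and those that moved further went in both directions. At an adjusted p under 0.05 and a change over 2-fold, 9 of 79 members (11.4%) rose, against 24.5% of all genes tested, and 5 (6.33%) fell, against 22% of all genes tested. Scaled by library size alone, these counts were 17 and 2. At an adjusted p under 0.05 with no limit on the fold, 31 members rose (39.2%, against 40.4% of all genes tested), 22 fell (27.8%, against 36%) and 26 did not pass. With library size alone, 43 rose and 17 fell at any fold. That scaling shifted the whole table upward, with a median log2 change over the 16756 genes of 0.29 instead of 0.08. No shares of all genes were taken under library size alone. The member counts under it therefore cannot be set against the percentages given here, and do not show a rise particular to the family. The 3 VprBP sh values lay above all 3 Control sh values for 34 members (43.0%, against 42.2%) and below them for 22 (27.8%, against 37.3%). The share of members that rose at any fold was thus near that of all genes, and the shares that fell or passed 2-fold were below it.

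Within 2-fold lay 65 members, or 82.3%, against 53.1% of all genes tested and 55.3% of the protein-coding genes tested. The median log2 fold change of the members was 0.14, against 0.08 over all genes tested and 0.06 over protein-coding genes. The median size of the log2 fold change, without its sign, was 0.51 for the members and 0.92 for all genes. The middle 50% of members spanned -0.37 to 0.70 and the middle 50% of all genes -0.83 to 0.99. This spread was not compared with that of genes of like level. In bulk RNA, a change in the number of cells that express a gene and a change in RNA per cell cannot be told apart.

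**Figure D1:**
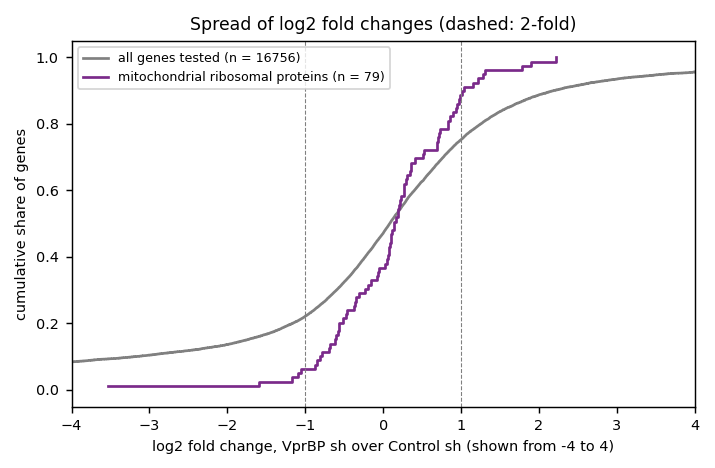
Cumulative share of genes (vertical axis) against the log2 fold change of VprBP sh over Control sh (horizontal axis, shown from -4 to 4) for the 79 mitochondrial ribosomal protein entries and all 16756 genes tested. The curve of the members is steeper, with 82.3% of members and 53.1% of all genes between the dashed 2-fold lines.

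**Figure D2:**
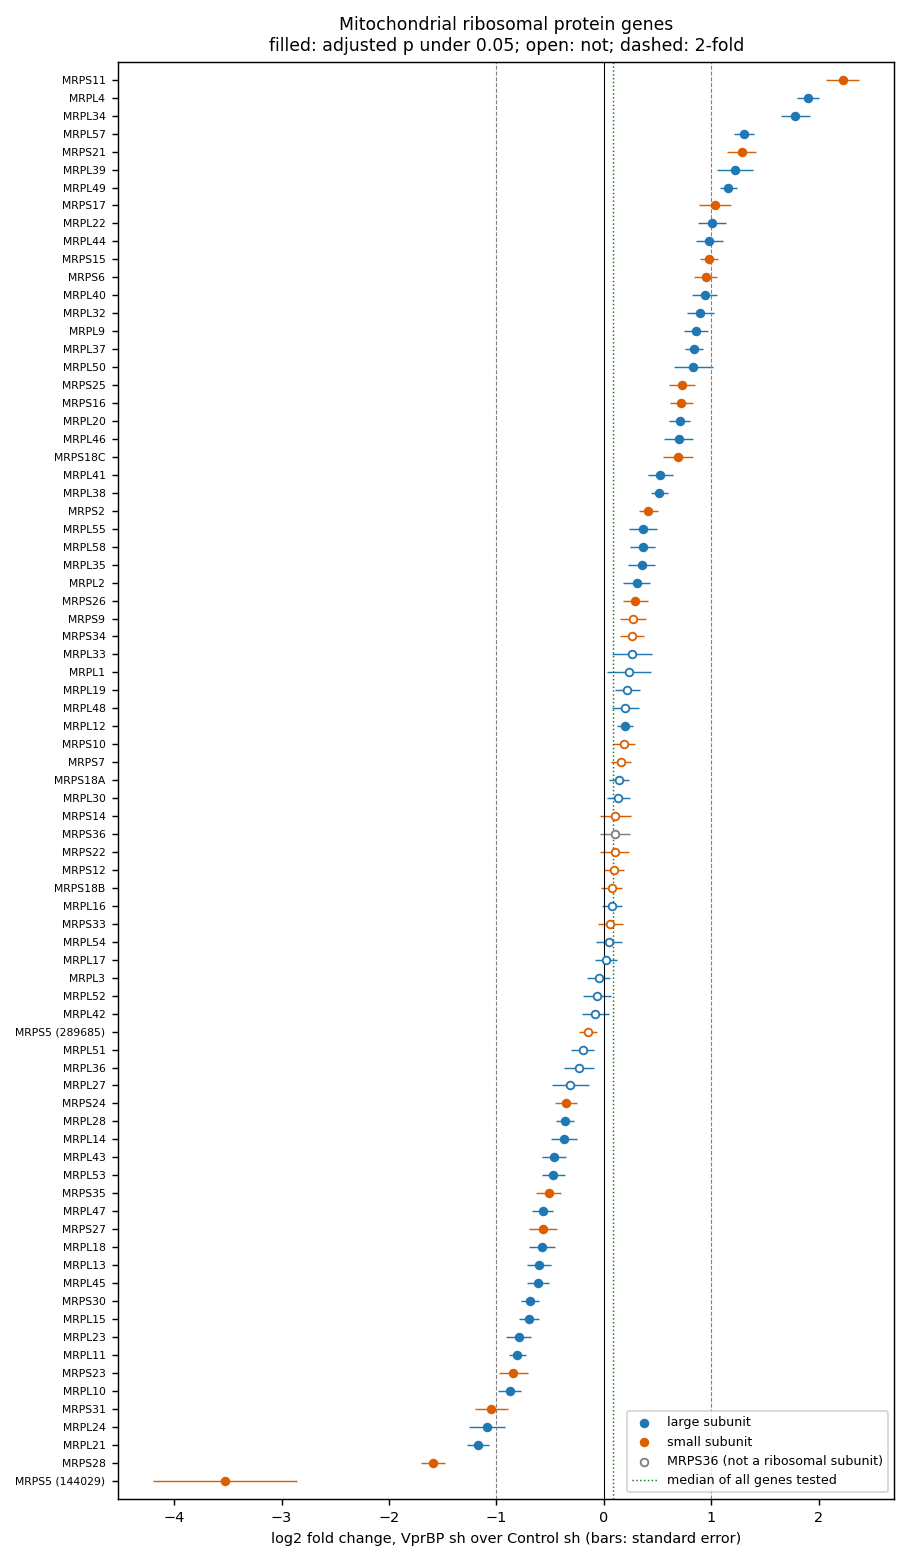
Log2 fold change of VprBP sh over Control sh (horizontal axis, bars give the standard error, n = 3 per group) for each of the 79 entries, ordered from the lowest to the highest and coloured by subunit. Filled points passed an adjusted p under 0.05 in edgeR's quasi-likelihood test. Large subunit members span -1.17 to 1.89, and small subunit members hold both ends, from -3.53 for the minor MRPS5 entry to 2.22 for MRPS11.

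The 9 members that rose past 2-fold were led by MRPS11 (hg38 chromosome 15, 88467453 to 88480776, plus strand), which encodes a platform protein of the small subunit. Its normalized counts, which are counts scaled by upper quartile factors, were 124, 159.8 and 191 in Control sh replicates 1, 2 and 3, and 709, 757 and 754 for the same replicates of VprBP sh. The lowest VprBP sh value was above the highest Control sh value, and the log2 fold change was 2.22 (SE 0.15, adjusted p = 8.74e-07 by edgeR). MRPL4 (chromosome 19, 10251901 to 10260055, plus strand) encodes a conserved large subunit protein. It had normalized counts of 1676, 1944 and 1988 in the Control sh samples and 6235, 7479 and 7146 in the VprBP sh samples. This was a log2 change of 1.89 (SE 0.10, adjusted p = 1.77e-07), and the groups were far apart. MRPL34 (chromosome 19, 17292609 to 17306843, plus strand), also a large subunit protein with a bacterial homolog, had normalized counts of 517, 550.1 and 475 in the Control sh samples and 1425, 1951 and 1921 in the VprBP sh samples. Its replicates in VprBP sh were spread more widely than those in Control sh, and the log2 fold change was 1.78 (SE 0.14, adjusted p = 1.68e-06).

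MRPL57 (chromosome 13, 21176658 to 21179084, plus strand) and MRPL49 (chromosome 11, 65122183 to 65127371, plus strand) encode large subunit proteins that have no bacterial counterpart. MRPL57 had normalized counts of 351, 373 and 359 in the Control sh samples and 895, 873 and 906 in the VprBP sh samples, a log2 change of 1.30 (SE 0.09, adjusted p = 1.21e-06). MRPL49 had normalized counts of 2039, 2284 and 2262 in the Control sh samples and 4839, 4847 and 5003 in the VprBP sh samples, a log2 change of 1.16 (SE 0.08, adjusted p = 8.16e-07). In both genes the replicates of a group lay close together and the groups did not overlap. MRPL39 (chromosome 21, 25585656 to 25607517, minus strand), another large subunit protein added in mitochondria, had normalized counts of 293, 474 and 448 in the Control sh samples and 1035, 901 and 904 in the VprBP sh samples, a log2 change of 1.22 (SE 0.17, adjusted p = 0.000112). Control sh replicate 1 was its lowest sample by a wide margin.

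MRPS21 (chromosome 1, 150293861 to 150308979, plus strand), a small subunit protein with a bacterial homolog, had normalized counts of 387, 540.3 and 534 in the Control sh samples and 1238, 1109 and 1212 in the VprBP sh samples, a log2 change of 1.28 (SE 0.14, adjusted p = 1.74e-05). MRPS17 (chromosome 7, 55951877 to 55956500, plus strand), also in the small subunit, went from 278, 261 and 306 to 702, 511 and 521, a log2 change of 1.03 (SE 0.15, adjusted p = 0.000143). MRPS17 shares exons on its strand with other annotated genes, so part of its reads may be divided between them. Such an overlap with any annotated gene was present for 42 of the 79 entries, on the same strand for 19. MRPS11, MRPL4, MRPL34 and MRPL49 share exons with genes on the other strand only. The strand setting of the counting is not given in the sources used here, so their reads may be divided too. MRPL22 (chromosome 5, 154941073 to 154969411, plus strand), which lines the exit tunnel of the large subunit, went from 423, 482 and 561 to 1083, 897 and 974, a log2 change of 1.01 (SE 0.13, adjusted p = 6.16e-05). MRPS17 and MRPL22 lay just past 2-fold. Both fell short of it with TMM factors, with DESeq2, and without Control sh replicate 2 or VprBP sh replicate 1, and MRPL22 also without Control sh replicate 1 or without the filter on low counts.

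Just short of 2-fold were MRPL44 (log2 fold change 0.98), an RNase III-like protein of the large subunit, MRPS15 (0.98), MRPS6 (0.95), MRPL40 (0.94) and MRPL32 (0.90), with adjusted p from 3.77e-06 to 0.00011 in edgeR. MRPL44 had normalized counts of 387, 517 and 501 in the Control sh samples and 994, 885 and 899.9 in the VprBP sh samples. MRPS15 had 1119.7, 1288 and 1262 and then 2441, 2398 and 2402. None of these 5 genes overlapped between the groups, and all 5 passed 2-fold with library size alone. MRPL44 also passed 2-fold when Control sh replicate 2 or 3 or VprBP sh replicate 2 was left out. MRPS15 did so without Control sh replicate 2, and MRPL40 without VprBP sh replicate 2. With replicates 2 and 3 summed, MRPL44, MRPS15 and MRPS6 passed 2-fold.

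Fewer members fell past 2-fold than rose. MRPS28 (chromosome 8, 79918717 to 80030289, minus strand), a small subunit protein whose exons overlap another gene on its strand, had normalized counts of 609, 607 and 669 in the Control sh samples and 221, 203 and 203 in the VprBP sh samples, and fell by 1.59 on the log2 scale (SE 0.11, adjusted p = 8.96e-07). MRPL21 (chromosome 11, 68891276 to 68903835, minus strand), a large subunit protein with a bacterial homolog, had normalized counts of 2245, 2643 and 2663 in the Control sh samples and 1206, 1037 and 1108 in the VprBP sh samples, and fell by 1.17 (SE 0.10, adjusted p = 3.61e-06). Both genes had every VprBP sh sample well below every Control sh sample.

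MRPL24 (chromosome 1, 156737303 to 156741590, minus strand), at the rim of the exit tunnel, had normalized counts of 691, 929 and 942 in the Control sh samples and 497, 357 and 356 in the VprBP sh samples, and fell by 1.09 (SE 0.17, adjusted p = 0.000245). MRPS31 (chromosome 13, 40729128 to 40771190, minus strand), a mitochondrial addition to the head of the small subunit, had normalized counts of 493, 687 and 721 in the Control sh samples and 322, 283 and 315 in the VprBP sh samples, and fell by 1.05 (SE 0.15, adjusted p = 0.000163). In both genes Control sh replicate 1 was the closest to VprBP sh. MRPS31 fell short of 2-fold without Control sh replicate 2 or 3 or without VprBP sh replicate 2. With library size alone, MRPL21, MRPL24 and MRPS31 all fell short of 2-fold, and with replicates 2 and 3 summed MRPL24 and MRPS31 did.

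MRPS5, a small subunit protein near the entry of the messenger RNA channel, needs its 2 entries read together. The minor entry (chromosome 2, 95085391 to 95165391, minus strand) had normalized counts of 45.2, 39.1 and 55 in the Control sh samples and 10, 3.12 and 0 in the VprBP sh samples, a log2 change of -3.53 (SE 0.67, adjusted p = 0.000862). The major entry (chromosome 2, 95085369 to 95122027, minus strand) overlaps it on the same strand and had normalized counts of 1789.6, 1952 and 1892 in the Control sh samples and 1808, 1632 and 1638 in the VprBP sh samples, a log2 change of -0.15 (SE 0.08, adjusted p = 0.123). Summed over both entries, MRPS5 averaged 1925 ± 80.8 normalized counts for Control sh against 1697 ± 104 for VprBP sh (SD, n = 3). Reads of the 2 entries could be split between them in counting, and the fall of the minor entry is therefore uncertain as a change of the gene.

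**Figure D3:**
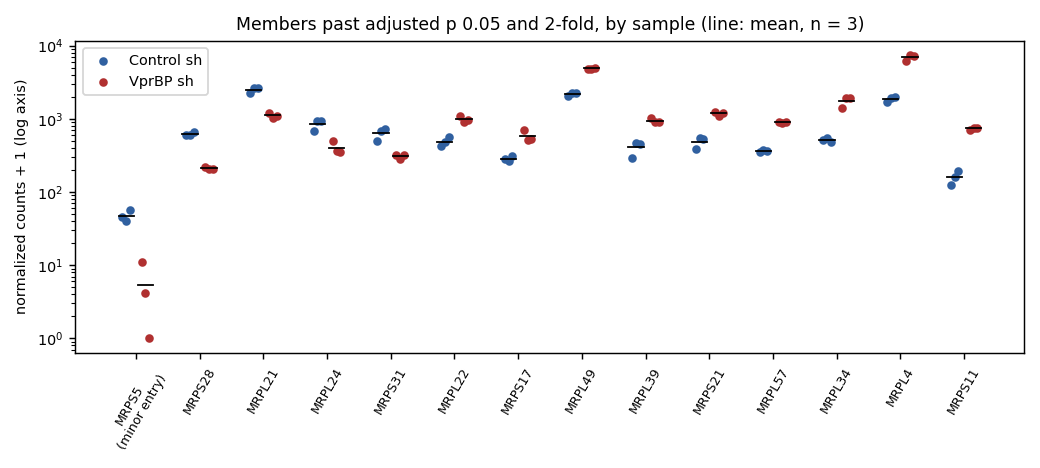
Normalized counts plus 1 (vertical log axis) of the 14 members past an adjusted p under 0.05 and 2-fold, in each Control sh sample (blue) and VprBP sh sample (red), with a black line at each group mean (n = 3). No blue point lies among the red points of its gene, and the minor MRPS5 entry is the lowest of the 14 in every sample.

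Falls that passed the adjusted p but not 2-fold were seen in the stalk, the flexible arm of the large subunit that recruits translation factors. MRPL10, which anchors the stalk, had normalized counts of 1001, 992 and 989.8 in the Control sh samples and 468, 571 and 583 in the VprBP sh samples, a log2 change of -0.88 (SE 0.11, adjusted p = 5.21e-05). MRPL11, at the stalk base, had 2107, 2164 and 2305 in Control sh, then 1303, 1198 and 1263 under VprBP sh, a log2 change of -0.81 (SE 0.08, adjusted p = 1.16e-05). MRPL12, which forms the stalk proper and has also been reported to bind the mitochondrial RNA polymerase, went the other way. It had normalized counts of 1943, 2077 and 2021 in the Control sh samples and 2323, 2313 and 2275 in the VprBP sh samples, a log2 change of 0.19 (SE 0.07, adjusted p = 0.0343). The rise of MRPL12 did not pass in 9 of 13 other settings, where its adjusted p ran from 0.0719 to 0.429.

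Of the 6 members at the tunnel exit, where the growing chain leaves the ribosome, 1 rose (MRPL22, 16.7%, against 40.4% of all genes tested), 4 fell (66.7%, against 36%) and MRPL17 did not pass, and the median log2 fold change was -0.59. MRPL23 had normalized counts of 1052, 1219 and 1132 in the Control sh samples and 566, 723 and 676 in the VprBP sh samples, a log2 change of -0.79 (SE 0.12, adjusted p = 0.000158). MRPL45, which anchors the ribosome to the inner membrane, had 948, 1078 and 1123 and then 683, 654 and 721, a log2 change of -0.61 (SE 0.10, adjusted p = 0.000361). MRPL47 fell as well, with a log2 fold change of -0.57. Neither MRPL23 nor MRPL45 overlapped between groups.

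To the central protuberance, the crest of the large subunit, 6 members were assigned here. Of these, 4 rose at an adjusted p under 0.05 (MRPL40, MRPL46, MRPL38 and MRPL58), MRPL18 fell and MRPL48 did not pass. Their median log2 fold change was 0.44. MRPL58, a peptidyl-tRNA hydrolase built into the ribosome, had a log2 fold change of 0.36 (adjusted p = 0.0168). Of the 8 members of the small subunit head, 3 fell (MRPS31, MRPS35 and MRPS24) and the other 5 did not pass, with a median of 0.08. Over all genes tested, 40.4% rose and 36% fell at that threshold. The groups of 3 to 8 genes are small and their differences were not tested against each other. They rest on the sites assigned here, which may leave out members.

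At an adjusted p under 0.05, which 40.4% of all genes tested passed as rises and 36% as falls, 21 of the 51 large subunit members rose (41.2%) and 15 fell (29.4%), with a median log2 fold change of 0.14. In the small subunit 10 of 27 entries rose (37.0%) and 7 fell (25.9%), with a median of 0.16. By origin, 10 of the 30 large subunit proteins with a bacterial homolog rose and 11 fell (median 0.05), while 11 of the 21 added in mitochondria rose and 4 fell (median 0.36). In the small subunit, 8 of 17 entries with a bacterial homolog rose and 3 fell (median 0.27), and 2 of 10 mitochondrial additions rose and 4 fell (median 0.07). With this grouping, the order of the origins by median was opposite in the 2 subunits. The grouping counted MRPS18A and MRPS18B, both homologs of a bacterial protein, among the mitochondrial additions. The medians were not taken with these 2 genes moved.

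Several members known for their role or their paralogs did not pass. MRPS12, the decoding-centre protein, had normalized counts of 1065, 1102 and 1092 in the Control sh samples and 1079.7, 1251 and 1149 in the VprBP sh samples, a log2 change of 0.09 (SE 0.09, adjusted p = 0.358). MRPS7, in the head, had a log2 change of 0.16 (SE 0.09, adjusted p = 0.144), and MRPS36 one of 0.10 (SE 0.14, adjusted p = 0.525). Human cells have 3 homologs of bacterial S18. MRPS18A, in the large subunit, had a log2 fold change of 0.14 (adjusted p = 0.213) and MRPS18B, in the small subunit, one of 0.07 (adjusted p = 0.513). MRPS18C, the closest of them to the bacterial protein, had normalized counts of 238, 296 and 313 in the Control sh samples and 496, 425 and 446 in the VprBP sh samples, a log2 change of 0.69 (SE 0.14, adjusted p = 0.00111). Whether MRPS18C differed from its paralogs was not tested. MRPS30, a large subunit protein, had 1426, 1602 and 1524 and then 972, 910.2 and 942 normalized counts, with a log2 change of -0.69 (adjusted p = 5.55e-05). MRPS27, a pentatricopeptide repeat protein of the small subunit, had a log2 fold change of -0.57 (adjusted p = 0.00272). MRPS23 (-0.84) and MRPL15 (-0.70) also fell, with adjusted p of 0.000246 and 9.68e-05.

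In abundance, the members spanned a wide range. Per kilobase of the annotated canonical transcript and leaving out MRPS5, mean normalized counts over the 6 samples ran from 61.6 for MRPL42 to 3622 for MRPL4, with a median of 659 over 77 genes. After MRPL4, per kilobase, came MRPS24 (2793), MRPL21 (2622), MRPL41 (2512) and MRPL37 (2157). At the low end, above MRPL42, were MRPL50 (119), MRPS33 (119.6), MRPS25 (131) and MRPS11 (132). The annotated MRPL42 transcript is 15.6 kb long, so its level per kilobase depends on that model. In Control sh the highest gene per kilobase was MRPL21 (3632) and in VprBP sh it was MRPL4 (5709, from 1535 in Control sh), and MRPS11 moved from 46.6 to 218. The ranking as a whole was similar in both groups, with a Spearman correlation across the 77 genes of 0.85 between the group means, which share gene lengths and are given as a description.

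Summed over all members, the genes took 0.292%, 0.340% and 0.345% of the counts in Control sh and 0.455%, 0.444% and 0.443% in VprBP sh. After upper quartile scaling the sums were 70030, 80140 and 81249 in Control sh and 92449, 90877 and 91320 in VprBP sh, a ratio of group means of 1.19. The ratio of group means was 1.20 for the large subunit and 1.17 for the small subunit. Large over small subunit counts were 1.91, 1.91 and 1.90 in Control sh and 1.95, 1.97 and 1.97 in VprBP sh, without overlap. This difference was not tested, and the ratio was not taken without MRPL4, a large subunit gene. The mean normalized count of MRPL4 went from 1869 in Control sh to 6953 in VprBP sh. The large subunit sum went from 50435 to 60453, so the higher ratio cannot be read as a shift of the subunit as a whole. MRPL4 and MRPL49 alone differed by 5084 and 2701 normalized counts between the group means, of a difference of 14409 over all members. The other members together differed by 6624, and the ratios of group means were not taken without these 2 genes.

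Within Control sh, replicate 1 gave lower values for most members. It had the lowest normalized count of the 3 Control sh samples for 67 of 79 members (84.8%), against 44.6% of all genes tested. Without it, the median log2 fold change of the members moved from 0.14 to 0.08, where the median of all genes tested was also 0.08. With that sample left out, 27 members rose and 25 fell at an adjusted p under 0.05.

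**Figure D4:**
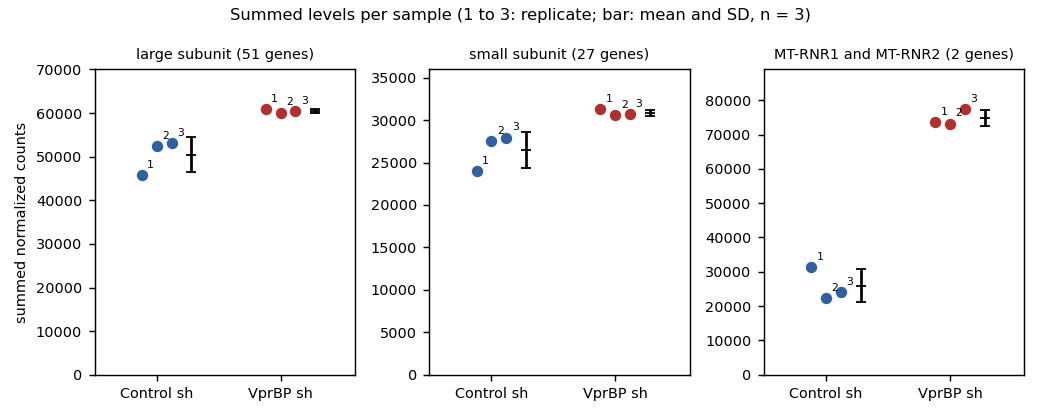
Summed normalized counts (vertical axes from 0) of the large subunit genes, the small subunit genes and the mitochondrial ribosomal RNAs in each sample, with replicate numbers beside the points and the mean ± SD (n = 3) as bars. Control sh replicate 1 is the lowest sample for both subunits and the highest Control sh sample for the ribosomal RNAs, and the ribosomal RNAs differ more between groups than the proteins do.

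Counts of the RNA scaffold of the same ribosome were higher in VprBP sh. The study's methods describe libraries made from captured messenger RNA, although the labels name another kit. The counts of the ribosomal RNAs may therefore depend on how these RNAs were captured, which was not measured. MT-RNR1, the small subunit ribosomal RNA, had a log2 change of 0.61 (SE 0.10, adjusted p = 0.000295) and MT-RNR2, the large subunit ribosomal RNA, one of 1.66 (SE 0.14, adjusted p = 2.76e-06). Summed, they had normalized counts of 31426, 22285 and 24129 in the Control sh samples and 73620, 73155 and 77384 in the VprBP sh samples, a ratio of 2.88 beside 1.19 for the proteins. The 13 mitochondrial messenger RNAs were higher too, with a ratio of 1.80 between the group means of their summed normalized counts. The ratios of the RNA and of the proteins were not tested against each other.

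Neighbouring genes on the chromosome moved with many of the members. For each member, the median log2 fold change of the other protein-coding genes tested within 1 Mb was taken, and 78 members had such neighbours. Across these 78 members, the log2 fold change of the member and the median of its neighbours had a Pearson correlation of 0.48 and a Spearman correlation of 0.62, given as a description because the genes share the same 6 libraries. MRPL4 (1.89) had a neighbour median of 1.66 over 52 genes, MRPL34 (1.78) one of 0.87 over 44 genes and MRPL22 (1.01) one of 0.91 over 8 genes. MRPS31 (-1.05) had a neighbour median of -0.87 over 8 genes. Others stood apart from their surroundings, among them MRPS11 (2.22, neighbour median 0.31), MRPL49 (1.16, neighbour median -0.33 over 76 genes) and MRPL21 (-1.17, neighbour median 0.03).

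By chromosome, the 3 members on chromosome 8 (MRPL13, MRPL15 and MRPS28) all fell at an adjusted p under 0.05, and the median of the 451 protein-coding genes tested on that chromosome was -0.74. On chromosome 21 both members (MRPL39 and MRPS6) rose, with a chromosome median of 0.94 over 136 genes, and on chromosome 19 all 4 members were higher, 2 of them past 2-fold, with a chromosome median of 0.52. On chromosome 1, 6 of 8 members rose and MRPL24 fell, with a chromosome median of 0.23. On chromosome 15 both members rose although the chromosome median was -0.44. Of all genes tested, 40.4% rose and 36% fell at an adjusted p under 0.05, and 24.5% rose past 2-fold as well. The part of such chromosome-wide shifts in the values of the members was not tested.

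**Figure D5:**
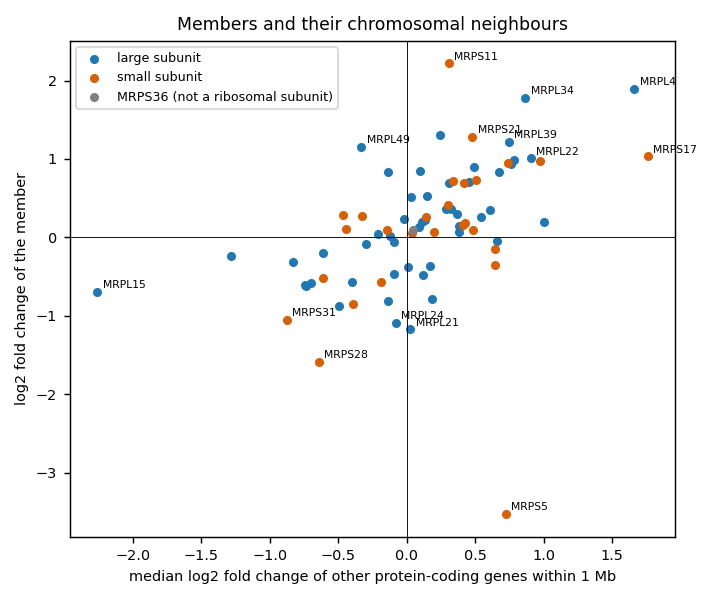
Log2 fold change of each member (vertical axis) against the median log2 fold change of the other protein-coding genes tested within 1 Mb (horizontal axis) for 78 entries, coloured by subunit. Points tend to lie in the lower left and upper right, with MRPS11, MRPL49 and the minor MRPS5 entry away from that trend.

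Many of these genes share a divergent start region with another gene, and 27 members had a tested protein-coding partner starting on the other strand within 1000 bases. In 20 of 26 named pairs, each counted once, the log2 changes of both genes had the same sign, whether or not they passed the test. The share of same-sign pairs among divergent or adjacent pairs of other genes was not taken. The part of the shared start region was not tested. A pair within the family was formed by MRPS11 and MRPL46, a central protuberance protein, whose starts lie 320 bases apart. MRPL46 had normalized counts of 192, 193 and 198 in the Control sh samples and 274, 325 and 346 in the VprBP sh samples, a log2 change of 0.70 (SE 0.13, adjusted p = 0.000961) beside 2.22 for MRPS11. MRPL21 and IGHMBP2, a helicase gene 59 bases away, both fell, with log2 changes of -1.17 and -3.57. MRPL49 and FAU, a cytosolic ribosomal protein gene 187 bases away, moved apart, with log2 fold changes of 1.16 and -0.45. MRPL57 and SKA3 both rose (1.30 and 0.74), and MRPS12 and SARS2, the mitochondrial seryl-tRNA synthetase gene, both failed to pass (0.09 and 0.14).

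The start regions were read for the core motifs of factors known to bind promoters of mitochondrial genes, because the members might share them. RefSeq start regions (GRCh38.p14, 250 bases before to 50 bases after each start) were matched for 69 members. The ETS motif CCGGAAGT, bound by GABP, was present on either strand in 12 members (17.4%), against 9.43% of the other tested genes and 4.95% of all 27305 genes in the reference. The NRF1 motif GCGCATGC was present in 6 (8.70%), against 5.96% and 3.68%. The YY1 motif AAGATGGCG was present in 13 (18.8%), against 4.31% and 2.14%. At least 1 of the 3 was found in 25 members (36.2%). The last letters of the YY1 motif, GCG, are the first of the NRF1 motif, so that matches to these can overlap. Of the 47 matched members with a higher level in VprBP sh, 5 held the ETS motif, 5 the NRF1 motif and 8 the YY1 motif, and of the 22 with a lower level, 7, 1 and 5 did.

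The 70 bases directly before the start are shown for 5 members to place the same letters beside unlike responses, with the motif in capitals. They belong to MRPL22 (chr5:154941003-154941072, plus strand), MRPL32 (chr7:42932306-42932375, plus strand), MRPL17 (chr11:6683341-6683410, minus strand), MRPS18B (chr6:30617770-30617839, plus strand) and MRPL20 (chr1:1407294-1407363, minus strand), each written 5′ to 3′ on the strand of the gene. The first 4 hold the NRF1 motif, in MRPS18B as its reverse complement, and MRPL20 holds the ETS motif.
MRPL22: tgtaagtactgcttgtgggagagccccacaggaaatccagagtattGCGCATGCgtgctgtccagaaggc
MRPL32: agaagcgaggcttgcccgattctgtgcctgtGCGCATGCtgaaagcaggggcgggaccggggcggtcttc
MRPL17: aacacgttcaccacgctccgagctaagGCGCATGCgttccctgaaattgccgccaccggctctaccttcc
MRPS18B: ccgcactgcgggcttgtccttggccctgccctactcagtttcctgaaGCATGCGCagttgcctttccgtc
MRPL20: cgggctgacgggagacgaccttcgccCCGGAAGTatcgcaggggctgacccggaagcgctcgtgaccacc
MRPL22 and MRPL32 rose, with log2 fold changes of 1.01 and 0.90, and MRPL20 rose by 0.71, whereas MRPL17 (0.02, adjusted p = 0.875) and MRPS18B (0.07) did not pass. No member shown here fell, and falling members with the ETS motif, such as MRPL18 (-0.58) and MRPL47 (-0.57), are not shown. A match of letters is a description of the window and not evidence of binding.

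Genes that work with the ribosome were read from lists of known components. The 5 subunits of the same ribosome under other symbols (DAP3, PTCD3, CHCHD1, AURKAIP1 and GADD45GIP1) were all higher, with a median log2 fold change of 0.28. At an adjusted p under 0.05, 4 of them rose (80%, against 40.4% of all genes tested). All 5 lay within 2-fold, against 53.1% of all genes tested. Among 12 translation factors, 3 rose (25%, against 40.4% of all genes tested) and 6 fell (50%, against 36%) at an adjusted p under 0.05, with a median of -0.24. MTRF1, a release factor, had normalized counts of 377, 359 and 379 in the Control sh samples and 151, 119 and 104 in the VprBP sh samples, and was past 2-fold with a log2 change of -1.59 (SE 0.16, adjusted p = 1.09e-05).

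Of 26 ribosome assembly factors, 14 rose (53.8%, against 40.4% of all genes tested) and 6 fell (23.1%, against 36%) at an adjusted p under 0.05, with a median log2 fold change of 0.41. Past 2-fold, 7 rose (26.9%, near the 24.5% of all genes tested) and 2 fell (7.69%, against 22%). YBEY, an RNA-processing endonuclease, rose from 29, 44.6 and 45.5 normalized counts in Control sh to 169.7, 158 and 182 in VprBP sh, a log2 change of 2.09 (SE 0.21, adjusted p = 1.28e-05). The pseudouridine synthase RPUSD4 (1.72), the GTPase MTG1 (1.70) and the methyltransferase MRM3 (1.36), which modifies the large ribosomal RNA, rose too. So did the methyltransferases NSUN4 (1.19) and MRM2 (1.09) and the assembly factor MPV17L2 (1.10). ERAL1, the GTPase that binds the small ribosomal RNA, fell from 3100.5, 3376 and 3495 to 1110, 1062 and 1067, a log2 change of -1.62 (SE 0.08, adjusted p = 1e-07), and the GTPase MTG2 fell by 1.05 on the log2 scale.

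Of 19 mitochondrial aminoacyl-tRNA synthetases, 11 rose (57.9%, against 40.4% of all genes tested) and YARS2 fell (5.26%, against 36%) at an adjusted p under 0.05, with a median log2 fold change of 0.60. Past 2-fold were 4 genes (21.1%, against 24.5%), namely MARS2 (1.57), HARS2 (1.52), VARS2 (1.41) and AARS2 (1.19), which charge the tRNAs for methionine, histidine, valine and alanine. GARS1 and KARS1 of this list also make the cytosolic enzymes. Each of these lists was chosen with results of these data known, and no test compared them with one another or with other genes.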

How the data were processed

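RNA-seq of 6 samples was analysed, assigned to Control sh and VprBP sh from the sample titles. The authors aligned single-end reads to hg38 with STAR and quantified them per gene, and the submitters' processing notes name Partek. The deposited values are estimated counts, not normalized and not pooled, and they were rounded to whole counts here although the design had been written for counts. The methods describe strand-specific libraries, the labels name another kit, and the strand setting of the counting is not given in the sources used here.

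All genes were fitted together with edgeR 4.0.16 (R 4.3.3), using upper quartile factors (quantile 0.75), its low-count filter (minimum count 10), its quasi-likelihood test without a replicate block and Benjamini-Hochberg adjustment over 16756 genes. The authors' own test, the Gene Specific Algorithm, was not used here. Normalized counts are counts divided by size factors, and standard errors are the log2 fold change over the square root of F. Alternatives were TMM factors, library size alone, DESeq2 1.42.0, no filter, a stricter filter, a replicate block, leaving out each replicate, and summing replicates 2 and 3. The tests were tried on simulated counts.

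Members and gene lists were chosen with earlier results of these data known. Named genes are all members past both thresholds, the 10 largest rises and falls, the 5 highest and lowest per kilobase, members of fixed roles, and the called genes of each list. Those named for their site, chromosome or start region outside this were chosen after their values were seen. Gene spans and neighbours come from the deposited table, and transcript lengths, exon overlaps and starts from GENCODE 44, which held all 79 members.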

Additional observations from a re-analysis of the deposited data

How the results depend on the processing

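The 4 scalings moved all genes together. Under upper quartile factors, TMM, DESeq2 and library size alone, in that order, all genes had a median log2 fold change of 0.08, -0.014, -0.038 and 0.29, and the members one of 0.14, 0.043, 0.019 and 0.35. The members lay 0.057 above all genes in each, which a scaling that moves all genes alike cannot change. With 1 sample left out, this difference ran from -0.0041 (Control sh replicate 1) to 0.11 (VprBP sh replicate 2). With replicates 2 and 3 summed it was 0.12. Library size alone gave 17 rises and 2 falls past 2-fold, and summing replicates 2 and 3 gave 3 falls. Leaving out 1 sample gave 7 to 11 rises and 4 to 5 falls, with a member median of 0.08 to 0.19. The replicate block gave the same 14 members, with 28 rises and 22 falls at any fold. Replicate numbers did not pair the samples (correlations of deviations -0.064, 0.016 and -0.053, with 1 of 6 samples closest to its own number). With the block, MRPL12 did not pass (adjusted p = 0.0719 by edgeR). Direction turned for 14 members between scalings, none of which passed the adjusted p with upper quartile factors. Among named ones, MRPS12 was -0.0032 with TMM and -0.027 with DESeq2, MRPS18B -0.023 and -0.048, MRPS33 -0.037 and -0.062 (-0.013 to 0.10 with 1 sample left out), MRPS36 -0.021 with DESeq2, and MRPL42 0.13 with library size alone.

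Medians of the related lists moved with the scaling, given here for TMM, library size alone and DESeq2. Translation factors had -0.34, -0.031 and -0.36, assembly factors 0.31, 0.62 and 0.29, aminoacyl-tRNA synthetases 0.50, 0.81 and 0.48, and regulators -0.31, 0.0029 and -0.33 (-0.27 with replicates 2 and 3 summed, -0.26 to -0.13 with 1 sample left out). The list of transcription and maintenance had 0.023 with library size alone, -0.31 with DESeq2 and -0.32 to -0.16 with 1 sample left out, and subunits under other symbols 0.49 with library size alone. Past 2-fold were 2 translation factors with TMM or DESeq2 and 1 to 2 with 1 sample left out, and 0 transcription genes with library size alone, 1 with the summed replicates and 1 to 2 with 1 sample left out. DCAF1 did not pass with library size alone (log2 fold change -0.37, adjusted p = 0.0851 by edgeR) or with the summed replicates (-0.46, adjusted p = 0.0839). The cause of these differences beyond the shift of scale was not tested.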

Other observations

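Genes that read and copy the mitochondrial genome were also examined. Of 12 genes of mitochondrial transcription and genome maintenance, 3 rose (25%, against 40.4% of all genes tested) and 4 fell (33.3%, against 36%) at an adjusted p under 0.05 by edgeR's quasi-likelihood test, with a median log2 fold change of -0.19. TEFM, the transcription elongation factor of mitochondria, had a log2 fold change of -1.19 (adjusted p = 0.000183), and POLG2, the accessory subunit of the mitochondrial DNA polymerase, one of -1.01 (adjusted p = 0.000189). Both lay past 2-fold. Of 9 regulators of mitochondrial biogenesis with an entry in the table, 3 rose (33.3%) and 4 fell (44.4%), with a median of -0.21. PPARGC1B, a transcriptional coactivator of mitochondrial genes, had a log2 fold change of 1.48 (adjusted p = 2.2e-06). The subunits of GABP moved apart, with GABPA at 0.79 (adjusted p = 0.000396), GABPB1 at -0.59 (adjusted p = 0.00359) and GABPB2 at 2.10 (adjusted p = 6.69e-06). NRF1 did not pass (0.20, adjusted p = 0.134), and YY1 had a log2 fold change of -0.30 (adjusted p = 0.00342).

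Some pseudogenes and antisense genes of the family had counts of their own. MRPL45P2 had 65, 86 and 115 counts for Control sh and 27, 17 and 28 for VprBP sh, and MRPL45 fell as well. MRPS31P5 had 129, 111 and 114 counts and then 69, 90 and 97, beside the fall of MRPS31. Reads shared between such copies and the parent genes could be divided in counting, so these values are uncertain. MRPL20-AS1 had a log2 fold change of 0.79 (adjusted p = 0.000295) beside 0.71 for MRPL20, and the reads of this antisense pair may not be fully separated, since the study's methods describe strand-specific libraries but the labels name another kit and the strand setting of the counting is not given in the sources used here.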
